A study of Mus musculus with 24 samples.

Results

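Wild-type p53 was compared with an empty vector in KPnull cells, a mouse pancreatic ductal adenocarcinoma line, by RNA-seq of 2 libraries in each group. These 4 libraries are among the 24 of the series, and the comparison covers the 15075 genes, of 55401 in the count table, whose counts passed an expression filter. KPnull cells of every group carried a doxycycline-inducible vector. It held no cDNA in the group called vector and wild-type p53 in the group called p53WT. In the other KPnull groups it held p53 mutated in transactivation domain 1 (TAD1m), in domain 2 (TAD2m) or in both (TAD12m), each with 2 libraries. The growth protocol gives 1 µg/ml doxycycline for 48 h to KPnull cells and names no exception for the vector group. The study's design text says with or without doxycycline, so whether every library had it is not certain. The alleles of the line, the species of the p53 cDNA, the promoter that drives it and whether the cells are a clone are not given in the sources used here. KPsh cells, a second line of the same cancer type kept on doxycycline at 1 µg/ml or taken off it for 10 days, with 3 libraries each, were used to read the direction of change in separate libraries.

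p53 is a transcription factor that is activated by DNA damage and oncogene signals and is lost or mutated in most pancreatic ductal adenocarcinomas. It binds a palindromic DNA element and, through its transactivation domains, raises genes that stop the cell cycle, start apoptosis, repair DNA and adjust metabolism. Among these are Mdm2, whose protein sends p53 to degradation, and Cdkn1a, which encodes the cyclin-dependent kinase (CDK) inhibitor p21. Cell-cycle genes fall by another route. With CDKs inhibited, RB-family proteins stay bound to E2F factors and the DREAM complex holds down genes whose promoters carry a cell-cycle homology region (CHR).

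The 4 libraries held between 14930656 and 19431250 counts, and the 10 KPnull libraries between 13657592 and 19431250. Levels are given in CPM, a gene's count scaled to the size of its library, with TMM factors between 0.979 and 1.02. A gene is called when its adjusted p is under 0.05. The spread was estimated over all 10 KPnull libraries, whose biological coefficient of variation was 0.0548 with 5 residual degrees of freedom. The labels do not say whether replicates came from separate cultures, so the p-values rest on differences among these libraries alone, and such differences may be technical. Fibroblast markers were near 0: all 12 lay under 1 CPM in the 4 libraries, 7 of them at 0 throughout (Col1a2, Dcn, Lum, Pdgfrb, Dpt, Thy1 and Postn), and their summed level was 0.459 and 0.855 CPM with vector and 1.38 and 0.82 CPM with p53WT. Of the 13 acinar and endocrine markers 11 lay under 1 CPM and 8 were at 0. Their summed level was 3.63 and 3.81 CPM with vector and 6.01 and 7.46 CPM with p53WT. Of 2 that passed the expression filter, 1 was called higher. Of 9 ductal markers, Epcam alone lay under 1 CPM, and their summed level was 6130 and 6570 CPM with vector and 9110 and 8630 CPM with p53WT.

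Trp53 itself was measured first, as a check of the labels. Trp53 (ENSMUSG00000059552.13, mm10 chr11:69580359-69591873, plus strand) stood at 6.13 and 4.54 CPM with vector and at 649 and 686 CPM with p53WT. Its log2 change was 6.95 ± 0.09 (SE), with an adjusted p of 1.558e-17. The labels and the gene therefore point the same way in all 4 libraries. Mean Trp53 levels with the mutant forms were 638 CPM for TAD1m, 527 CPM for TAD2m and 566 CPM for TAD12m, and p53WT exceeded TAD12m by 0.24 ± 0.06 on the log2 scale (adjusted p = 0.004384). Trp53-ps, a processed pseudogene of Trp53, had no count with vector and 10.5 and 12.03 CPM with p53WT, at least 130-fold higher if 3 counts are allowed to the vector group as a whole. Reads of a gene and its processed copy can be exchanged in mapping, so the Trp53-ps value is uncertain.

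With p53WT, 3841 genes were higher than with vector (25.5% of those tested) and 3782 were lower (25.1%), 50.6% in all. The numbers were near equal but the sizes were not. A change of at least 1 on the log2 scale was seen in 1110 of the higher and 435 of the lower genes, a change of at least 2 in 330 and 21, and a change of at least 3 in 132 and 2. The median log2 change was 0.64 among the higher and -0.46 among the lower genes, and -0.01 over all genes tested. Both p53WT libraries lay above both vector libraries in 5393 genes (35.8%) and below them in 5591 (37.1%). For scale, the middle 80% of log2 changes spanned -0.62 to 0.86 for p53WT against vector and -0.25 to 0.28 for TAD12m against vector. Among protein-coding genes, 3506 were higher and 3448 lower of 12249 tested.

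**Figure D1:**
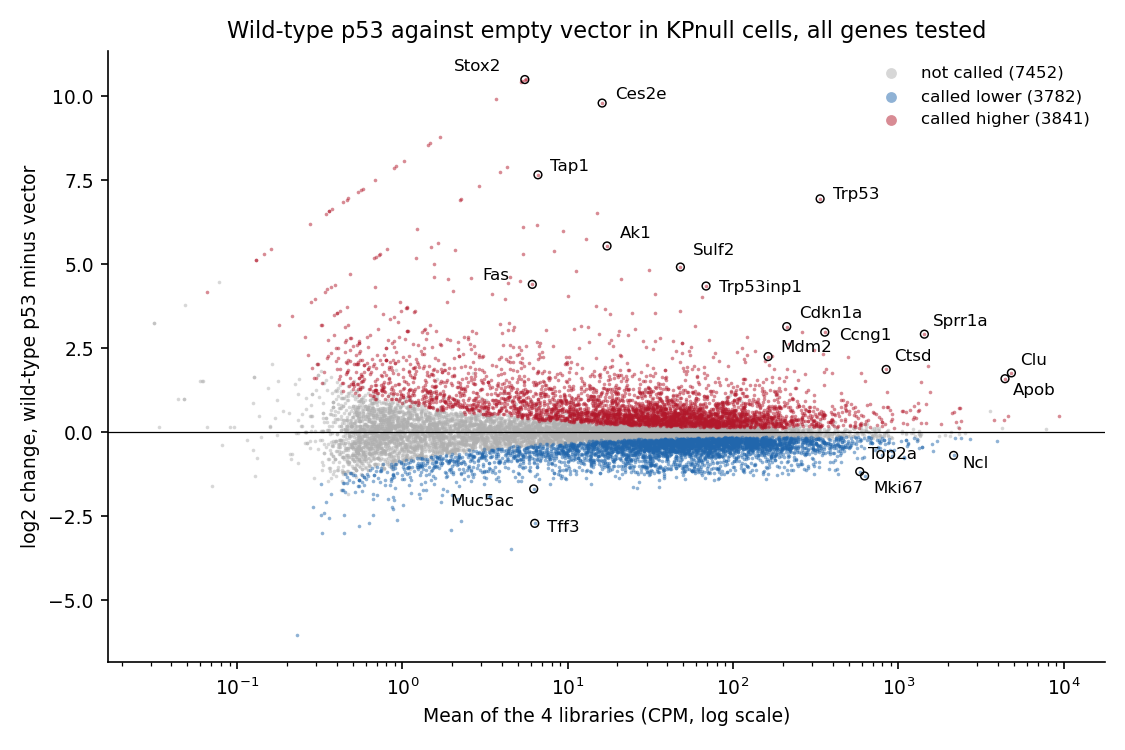
Each point is 1 of the 15075 genes tested, with the mean CPM of the 4 libraries on a log axis across and the log2 change, p53WT minus vector, upward; red points are called higher (3841), blue points called lower (3782) and grey points not called. Circles mark genes named in the text. Higher genes reach log2 changes of 10, while the abundant lower genes such as Mki67 and Top2a lie near -1.3 to -1.2.

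3 well-known p53 targets rose together. Cdkn1a (ENSMUSG00000023067.14, chr17:29093781-29100727, plus strand) measured 38.7 and 47.5 CPM with vector and 401 and 358 CPM with p53WT, a log2 change of 3.15 ± 0.08 (adjusted p = 1.515e-13). Mdm2 (ENSMUSG00000020184.15, chr10:117688875-117710758, minus strand) measured 56.4 and 56.6 CPM against 267 and 272 CPM, a change of 2.25 ± 0.07 (adjusted p = 1.444e-13). Ccng1, which encodes cyclin G1 (ENSMUSG00000020326.7, chr11:40748552-40755311, minus strand), measured 82.99 and 78.5 CPM against 624 and 651 CPM, a change of 2.98 ± 0.09 (adjusted p = 3.192e-12). In each of these genes the groups lay far apart, with replicates within a fraction of the gap. Exons of Cdkn1a share 7.7% of their bases with 1700023B13Rik.

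**Figure D2:**
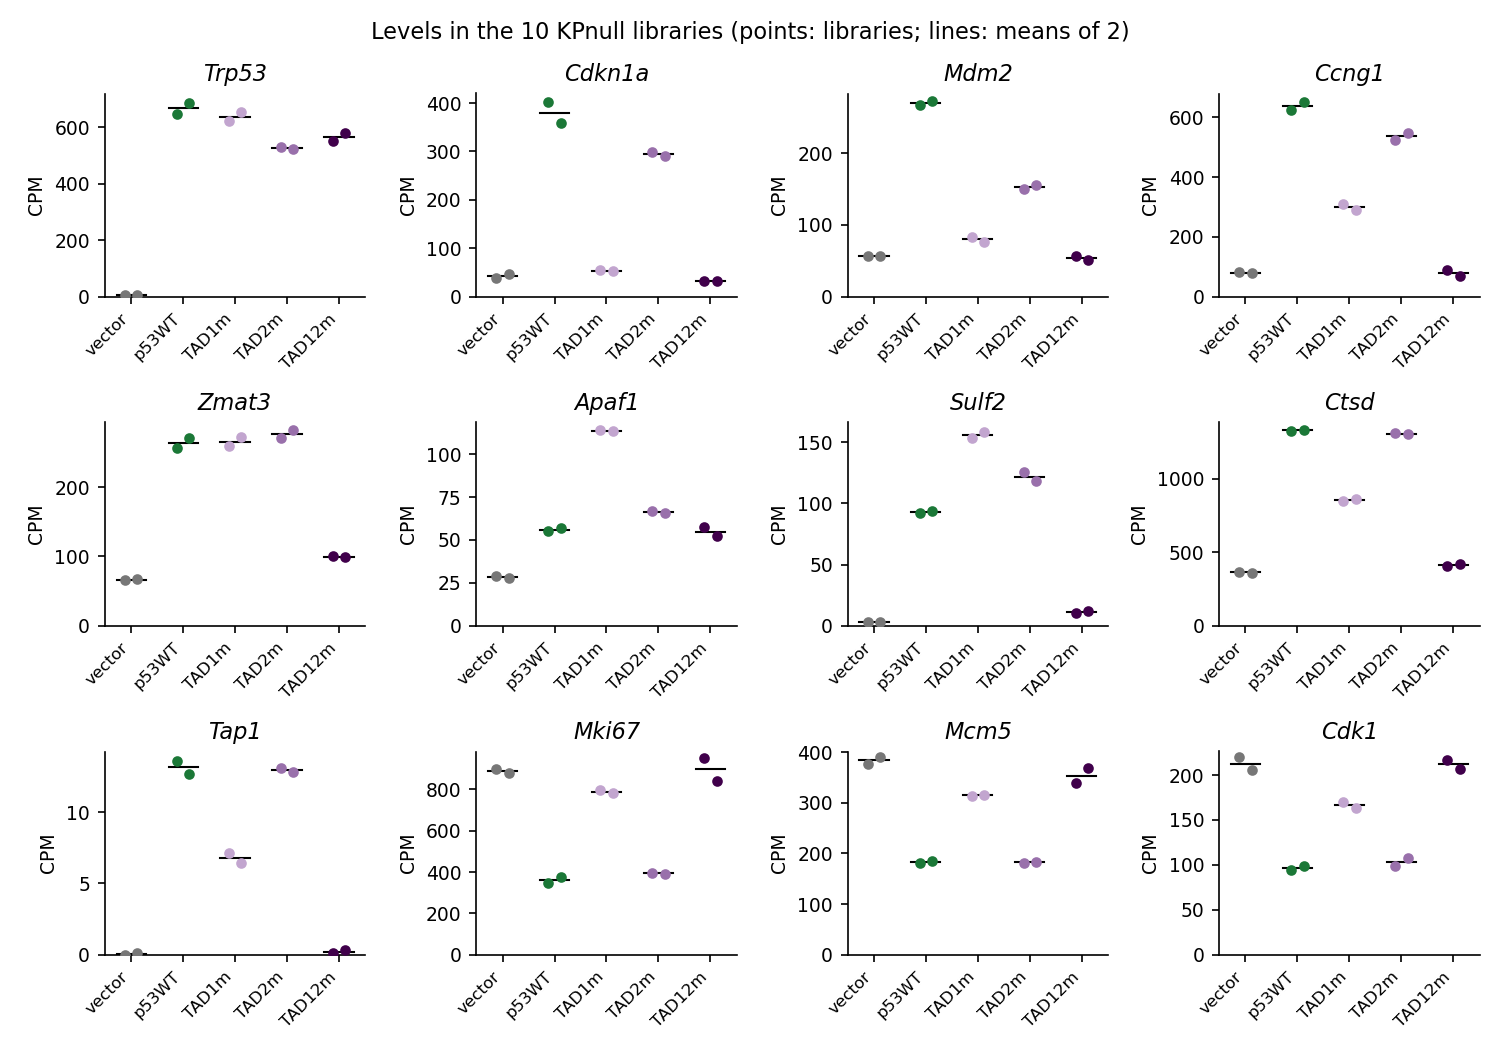
CPM on linear axes from 0 for 12 genes in the 10 KPnull libraries; points are libraries and short lines the means of 2. With p53WT, Cdkn1a, Mdm2, Ccng1, Ctsd and Tap1 lie far above both vector and TAD12m, Mki67, Mcm5 and Cdk1 lie below both, and Apaf1 is as high with TAD12m as with p53WT.

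The targets were grouped by role, in lists drawn up with earlier results of these data known. Of 96 target genes tested, 59 were higher and 13 lower, against 25.5% and 25.1% of all genes. Where a list below has none in a direction, edgeR found 0 members there at an unadjusted p under 0.05 as well, and DESeq2 called 0. Among 10 genes of the p53 feedback loop, 5 were higher and none lower, with a median log2 change of 0.28. Trp53inp1, whose product supports p53 and autophagy, measured 6.33 and 6.51 CPM with vector and 129 and 133 CPM with p53WT, a change of 4.35 ± 0.09 (adjusted p = 7.073e-15). The long noncoding RNA Pvt1 measured 10.5 CPM in both vector libraries and 17.5 and 14.7 CPM with p53WT (0.63 ± 0.11, adjusted p = 0.0001957). Trp53cor1, known as lincRNA-p21, rose from 0.153 and 0.132 CPM to 1.75 and 2.26 CPM (3.73 ± 0.46, adjusted p = 4.369e-06), and shares 44.1% of its exon bases with Gm41556. The other 5 did not pass the test, among them Mdm4, the partner of Mdm2, at -0.14 ± 0.07 (adjusted p = 0.1224), and the p53 phosphatase gene Ppm1d at -0.14 ± 0.12 (adjusted p = 0.3225), whose value without p53WT replicate 2 was 0.02.

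Of 13 genes listed under cell-cycle arrest, 6 were higher and 2 lower, with a median of 0.56. The 6 include Ccnd1, a D-type cyclin gene, so the list does not hold arrest genes alone. Besides Cdkn1a, the antiproliferative gene Btg2 rose from 13.1 and 14.1 CPM to 80.2 and 88.9 CPM, a change of 2.64 ± 0.08 (adjusted p = 3.229e-13). Plk2, a kinase of the polo family, rose from 109 and 108 CPM to 275 and 264 CPM (1.31 ± 0.05, adjusted p = 8.36e-12). Of the D-type cyclin genes, whose products bind CDK4 and CDK6, Ccnd1 and Ccnd2 also rose. Ccnd1 rose from 873 and 965 CPM to 1587 and 1551 CPM, a change of 0.77 ± 0.06 (adjusted p = 1.206e-08), with 23.4% of its exon bases shared with another gene. Ccnd2 rose from 316 and 327 CPM to 462 and 487 CPM (0.56 ± 0.05, adjusted p = 2.454e-07). Both members called lower are known to act against proliferation: Cdkn1b, the CDK inhibitor p27, fell from 88.5 and 89.6 CPM to 58.4 and 57.1 CPM, and E2f7, a repressor of the E2F family, fell from 38.9 and 40.6 CPM to 22.3 and 24.4 CPM. Their log2 changes were -0.63 ± 0.06 (adjusted p = 3.456e-07) for Cdkn1b and -0.77 ± 0.08 (adjusted p = 9.926e-07) for E2f7.

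Of 16 apoptosis genes 14 were higher and none lower, with a median of 0.83. The largest change was in the death receptor gene Fas, from 0.561 and 0.526 CPM to 12.3 and 11 CPM, 4.40 ± 0.22 on the log2 scale (adjusted p = 1.022e-10). Zmat3, an RNA-binding protein gene (ENSMUSG00000027663.12, chr3:32334792-32365678, minus strand), rose from 65.6 and 67.2 CPM to 257 and 271 CPM (1.99 ± 0.06, adjusted p = 1.444e-13). Pidd1, which encodes the scaffold that activates caspase-2, rose from 11.1 and 11.9 CPM to 26.99 and 28.6 CPM (1.28 ± 0.10, adjusted p = 1.326e-08). The list holds genes of both outcomes. Bcl2l1, whose main product BCL-XL protects from apoptosis, rose from 87.4 and 97.9 CPM to 215 and 218 CPM, a change of 1.23 ± 0.07 (adjusted p = 4.456e-10). The BH3-only genes were Pmaip1, at 140 and 136 CPM against 230 and 226 CPM (0.73 ± 0.06, adjusted p = 3.945e-08), and Bbc3, at 5.46 and 8.48 CPM against 16.1 and 11.96 CPM (1.04 ± 0.27, adjusted p = 0.01258). The call for Bbc3 depended on single libraries: its adjusted p was 0.0763 without p53WT replicate 1 and 0.0622 without vector replicate 1. Bax, a pore-forming effector, rose by 0.48 ± 0.08 (adjusted p = 6.405e-05; 12.2% of its exon bases are shared with Gm45808), and Perp, a membrane protein gene, by 0.93 ± 0.05 (adjusted p = 7.071e-10).

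DNA repair targets had 5 of 10 higher and 3 lower, against 25.5% and 25.1% of all genes, with a median of 0.04. Ercc5, the XPG endonuclease of nucleotide excision repair, rose from 18.4 and 19.3 CPM to 57.4 and 59.1 CPM (1.63 ± 0.08, adjusted p = 5.576e-11). Polk, a translesion polymerase, rose from 15.5 and 14.7 CPM to 42.8 and 43.9 CPM (1.52 ± 0.08, adjusted p = 2.274e-10). Mgmt, which removes alkyl groups from guanine, was at 0.051 and 0.263 CPM with vector and 1.82 and 2.12 CPM with p53WT (3.70 ± 0.47, adjusted p = 5.177e-06), and this change was 5.07 without vector replicate 2 and 2.86 without vector replicate 1. Recombination and translesion genes were among the lower members. Polh, the polymerase eta gene, fell from 29.6 and 27.9 CPM to 17.1 and 17.7 CPM (-0.73 ± 0.09, adjusted p = 6.979e-06), and Rad51c, a recombination factor, fell from 7.30 and 6.84 CPM to 2.82 and 3.21 CPM (-1.23 ± 0.19, adjusted p = 3.313e-05). Ddb2, the damage sensor of nucleotide excision repair, did not pass the test at -0.33 ± 0.15 (adjusted p = 0.07258), although it did in a fit of the 4 libraries alone (adjusted p = 0.0388).

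Of 18 metabolic and redox targets 10 were higher and 4 lower, with a median of 0.53. Ak1, an adenylate kinase gene, went from 0.561 and 0.92 CPM to 36.1 and 31.6 CPM, a log2 change of 5.54 ± 0.17 (adjusted p = 2.483e-13). Dcxr, a dicarbonyl and xylulose reductase gene, went from 1.28 and 2.24 CPM to 45.7 and 35.1 CPM (4.57 ± 0.19, adjusted p = 8.225e-11). Sesn2, a sestrin that restrains mTORC1, rose from 11.1 and 13.3 CPM to 49.3 and 47.7 CPM (2.00 ± 0.10, adjusted p = 7.447e-11). Lpin1, a phosphatidate phosphatase gene, rose from 30.4 and 28.4 CPM to 88.6 and 94.7 CPM (1.64 ± 0.07, adjusted p = 1.368e-11). Other well-known members of the list were not higher. Sesn1, the sestrin gene first described as a p53 target, was at 13.3 and 14.6 CPM with vector and 11.4 and 9.98 CPM with p53WT, -0.38 ± 0.13 on the log2 scale (adjusted p = 0.02611), and this call was lost without p53WT replicate 2 (adjusted p = 0.181) and without vector replicate 2 (adjusted p = 0.118). Tigar, a fructose bisphosphatase gene, was at -0.13 ± 0.07 (adjusted p = 0.1328), and Gls2, a glutaminase gene, at -0.30 ± 0.13 (adjusted p = 0.06265), which became 0.0206 without vector replicate 2.

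Among 13 autophagy targets 6 were higher and 1 lower, with a median of 0.21. Atg7, an enzyme of LC3 conjugation, rose from 35.5 and 34.2 CPM to 79.6 and 81.1 CPM (1.20 ± 0.07, adjusted p = 1.261e-09). The initiating kinases followed, with Ulk1 at 0.92 ± 0.11 (adjusted p = 8.917e-06) and Ulk2 at 0.91 ± 0.09 (adjusted p = 3.141e-07), as did the lysosomal membrane protein gene Laptm4a at 0.77 ± 0.05 (adjusted p = 6.255e-09). Secreted and surface targets had 13 of 16 higher and 3 lower, with a median of 0.78. Sulf2, a heparan sulphate sulphatase gene (ENSMUSG00000006800.14, chr2:166073089-166155663, minus strand), rose from 3.06 and 3.09 CPM to 92.4 and 93.7 CPM, 4.92 ± 0.10 on the log2 scale (adjusted p = 2.221e-15). Thbs1, the thrombospondin-1 gene, rose from 63.2 and 57.6 CPM to 370 and 382 CPM (2.64 ± 0.08, adjusted p = 1.331e-13). The stress cytokine Gdf15 was less steady, at 1.12 and 2.76 CPM with vector and 14.2 and 9.16 CPM with p53WT (2.65 ± 0.36, adjusted p = 0.0001916), with 3.38 without vector replicate 2 and 2.09 without vector replicate 1. Lif, a cytokine of the interleukin-6 family, rose by 1.84 ± 0.10 (adjusted p = 3.441e-10).

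**Figure D3:**
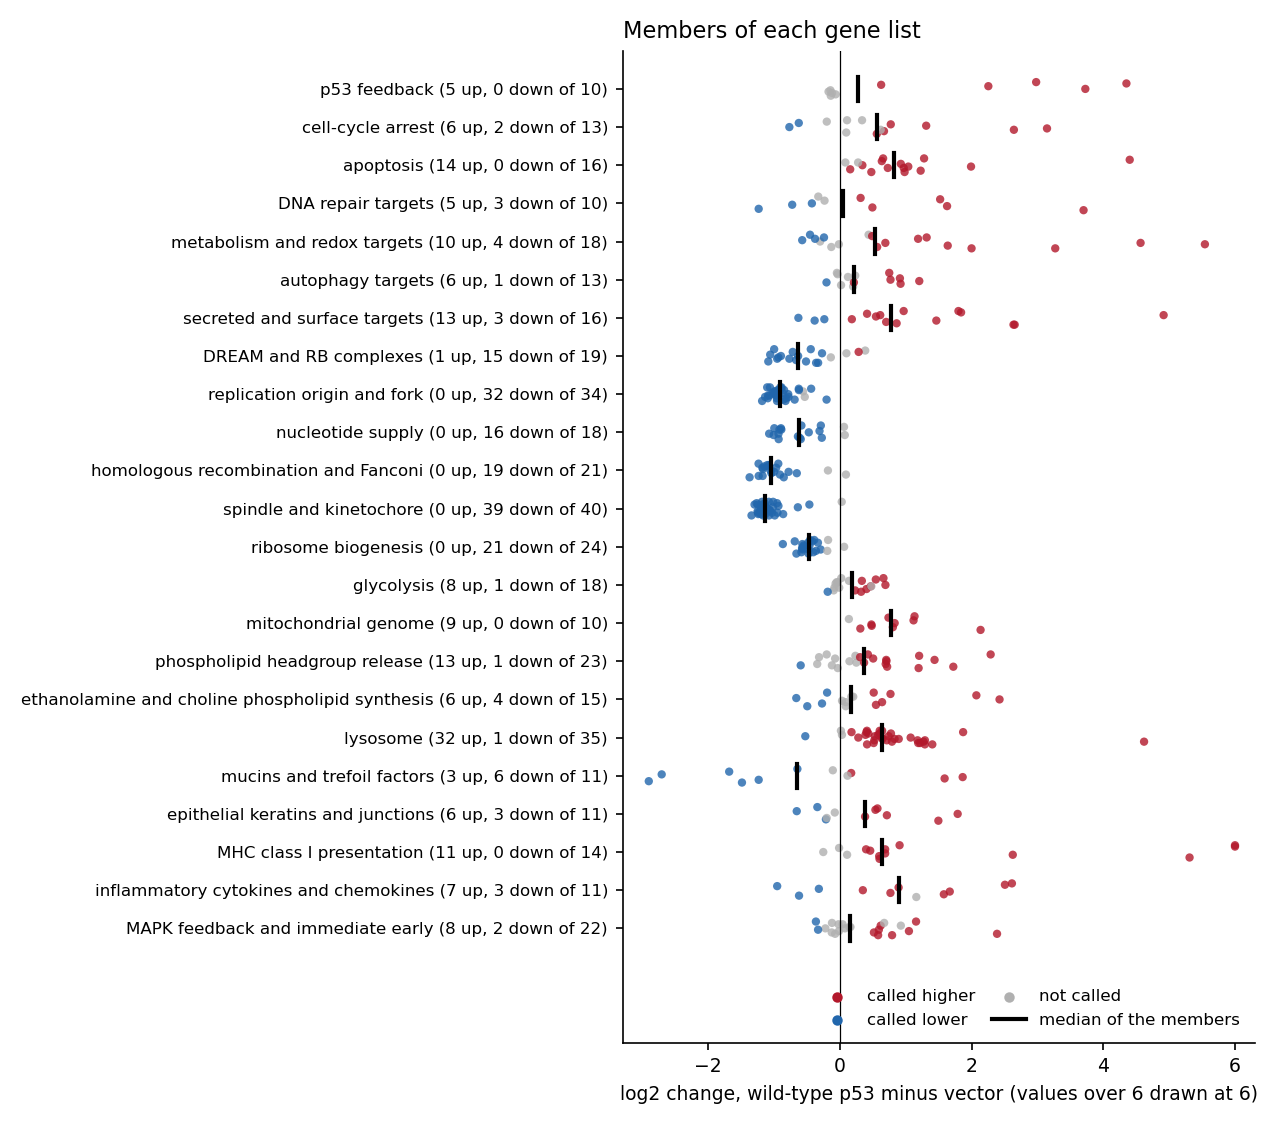
Log2 change, p53WT minus vector, of the tested members of 23 gene lists; each point is a gene, red called higher, blue called lower, grey not called, and the black bar is the list's median. The replication, recombination, spindle and ribosome biogenesis lists lie left of 0 with hardly an exception, lysosome and apoptosis lie right of it, and values over 6 are drawn at 6.

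Most listed genes of cell division fell. Because these are bulk libraries, fewer cells in a phase of the cycle and less RNA per cell cannot be told apart. The spindle and kinetochore list had 39 of 40 lower and none higher, with a median of -1.13. Mki67, the proliferation marker (ENSMUSG00000031004.8, chr7:135689784-135716361, minus strand), fell from 899 and 878 CPM to 347 and 377 CPM, a log2 change of -1.30 ± 0.06 (adjusted p = 7.259e-11). Knl1, a kinetochore scaffold gene, fell from 97.9 and 95.1 CPM to 36.3 and 39.8 CPM (-1.34 ± 0.08, adjusted p = 9.634e-10). Nusap1, a spindle protein gene, fell from 95.6 and 89.1 CPM to 38.3 and 38.6 CPM (-1.26 ± 0.07, adjusted p = 6.814e-10). In all of these the p53WT libraries lay far below the vector libraries, with no overlap. Cdc25c, the phosphatase that activates CDK1, fell by 1.25 on the log2 scale (SE 0.09, adjusted p = 5.744e-09) and shares 12.7% of its exon bases with another gene. The member that did not fall was Pttg1, the securin gene, at 13.9 and 14.1 CPM with vector and 15.3 and 13.3 CPM with p53WT (0.03 ± 0.11, adjusted p = 0.8597), a value that turned to -0.08 without p53WT replicate 1.

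The CHR, which is bound by the LIN54 subunit of DREAM, and the NF-Y box often found with it were searched in the promoters of these genes. Windows of 300 bases, from 250 before to 50 after the gene start, were taken from RefSeq (GRCm38.p6) and were found for 33 of the 40 spindle genes and for 10284 of all 15075 tested genes (68.2%). The stretches below are shown because each lies just before the start, in no annotated exon, and holds a CHR and an NF-Y box. They are written 5′ to 3′ on the gene's strand, and capitals mark TTTGAA (CHR) and CCAAT (NF-Y box) in either direction. Kif11, Top2a, Cdk1 and Cdc20 are at chr19:37376302-37376381 (plus), chr11:99024190-99024269 (minus), chr10:69352939-69353018 (minus) and chr4:118437353-118437432 (minus).
Kif11: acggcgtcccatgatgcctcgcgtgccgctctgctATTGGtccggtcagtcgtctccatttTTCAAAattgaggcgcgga
Top2a: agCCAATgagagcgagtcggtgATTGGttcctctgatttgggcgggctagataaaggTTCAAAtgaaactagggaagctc
Cdk1: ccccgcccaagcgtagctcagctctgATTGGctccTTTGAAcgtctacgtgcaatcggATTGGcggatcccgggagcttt
Cdc20: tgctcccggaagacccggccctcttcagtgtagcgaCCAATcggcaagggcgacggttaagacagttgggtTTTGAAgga
Cdk1, the mitotic kinase, fell from 220 and 205 CPM to 94.1 and 99.1 CPM (-1.14 ± 0.06, adjusted p = 3.649e-10). Kif11, a spindle motor gene, fell from 239 and 218 CPM to 96.6 and 96.3 CPM (-1.25 ± 0.07, adjusted p = 2.008e-10). Top2a, topoisomerase II alpha, fell from 830 and 787 CPM to 352 and 369 CPM (-1.17 ± 0.06, adjusted p = 1.445e-10). Cdc20, which activates the anaphase-promoting complex, fell from 168 and 190 CPM to 95.2 and 90.01 CPM (-0.95 ± 0.07, adjusted p = 4.778e-09). These genes, with different roles in mitosis, fell by between 0.95 and 1.25 on the log2 scale.

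Over the 33 spindle windows, TTTGAA on either strand was present in 23 (69.7%), CCAAT in 25 (75.8%) and both in 20 (60.6%). Over all 32851 windows of the RefSeq table the shares were 17.9%, 37.4% and 7.0%. That background is not limited to tested genes or to 1 window per gene, as the lists are. Shares over the tested genes alone were not computed. Of the 17 windows of nucleotide supply genes, which also fell, 2 held TTTGAA (11.8%) and 7 held CCAAT (41.2%). None of the 11 windows of cell-cycle arrest targets held TTTGAA, and 1 of the 16 windows of metabolic and redox targets did (6.2%). CCAAT was in 6 (54.5%) and 10 (62.5%) of these windows, and in 8 of 12 for MHC class I genes (66.7%). Its share was 38.9% for glycolysis, 38.5% for phospholipid synthesis and 36.8% for headgroup release. It was 33.3% for keratin and junction genes and 23.1% for autophagy targets. A match is a description of the window and not a binding site, and shares are given only for lists in which at least 80% of the members had a window.

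**Figure D4:**
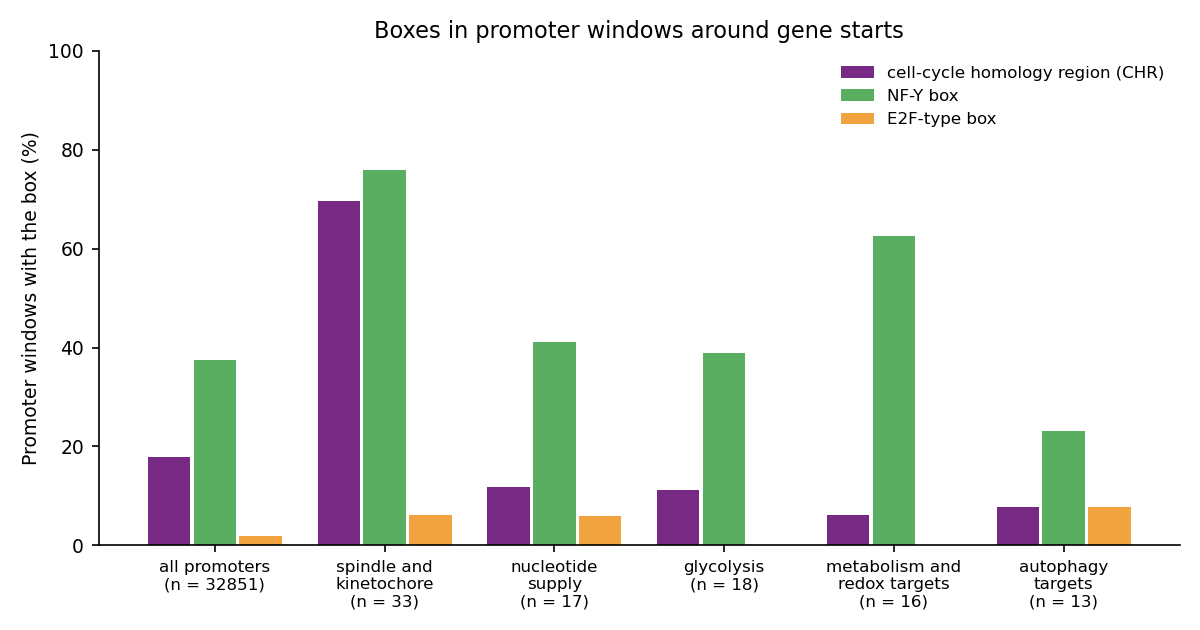
Percent of promoter windows that hold a CHR (purple), an NF-Y box (green) or an E2F-type box (orange), for all 32851 windows of the RefSeq table and for 5 gene lists. The CHR stands at 69.7% among the 33 spindle and kinetochore windows and between 6.2% and 17.9% in the other groups.

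The replication list, origin and fork proteins, had 32 of 34 lower and none higher, with a median of -0.91. Clspn, the checkpoint adaptor claspin, fell from 70.4 and 69.5 CPM to 27.7 and 34.1 CPM (-1.18 ± 0.09, adjusted p = 2.721e-08). The origin licensing genes fell with it, Cdc6 from 86.9 and 74.1 CPM to 35.8 and 37.6 CPM (-1.14 ± 0.09, adjusted p = 6.008e-08) and Mcm5, a subunit of the replicative helicase, from 377 and 391 CPM to 181 and 184 CPM (-1.07 ± 0.06, adjusted p = 1.445e-10). Mcm10 and Ticrr, both needed to fire origins, changed by -1.11 ± 0.07 (adjusted p = 7.071e-10) and -1.10 ± 0.08 (adjusted p = 1.485e-08). Cdt1, a licensing factor gene, and Pold1, the catalytic subunit of polymerase delta, were lower but did not pass the test. Cdt1 stood at 78.6 and 101 CPM against 64.5 and 56.7 CPM (-0.56 ± 0.21, adjusted p = 0.0636, but 0.0481 without vector replicate 1, 0.0232 in DESeq2 and 0.0069 with the 4 libraries alone). Pold1 stood at 65.8 and 88.7 CPM against 55.9 and 50.3 CPM (-0.53 ± 0.23, adjusted p = 0.1056, but 0.0273 with the 4 libraries alone). In both genes the groups did not overlap and the vector replicates were far apart.

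E2F factors bind upstream of many replication genes. The stretch before the start of Mcm6 (chr1:128359706-128359785, minus strand) is shown as a member with an E2F-type box there, in capitals. It is 1 example: windows were found for 26 of the 34 replication genes (76.5%), so no share is given for that list. The boxes searched, on both strands, were TTTGGCGC, TTTCCCGC and TTTCGCGC, present in 1.8% of all windows.
Mcm6: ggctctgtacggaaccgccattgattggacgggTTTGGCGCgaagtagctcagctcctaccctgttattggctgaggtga
Mcm6, another helicase subunit, fell from 343 and 326 CPM to 168 and 180 CPM (-0.94 ± 0.06, adjusted p = 8.819e-10).

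The remaining S-phase groups were lower too. Nucleotide supply had 16 of 18 lower and none higher (median -0.62), and homologous recombination and Fanconi anaemia genes had 19 of 21 lower and none higher (median -1.05). Rrm1, the large subunit of ribonucleotide reductase, fell from 337 and 321 CPM to 161 and 167 CPM (-1.01 ± 0.06, adjusted p = 4.215e-10). Thymidine kinase Tk1 fell from 99.5 and 99.9 CPM to 48.0 and 46.7 CPM (-1.07 ± 0.07, adjusted p = 1.617e-09). Tyms, thymidylate synthase, changed by -0.997 ± 0.07 (adjusted p = 2.257e-09). Gart, an enzyme of purine synthesis, changed less, by -0.28 ± 0.05 (adjusted p = 0.0003663). Palb2, the bridge between BRCA1 and BRCA2, fell from 13.7 and 14.5 CPM to 4.76 and 6.15 CPM (-1.37 ± 0.13, adjusted p = 2.229e-07). Fancd2, the Fanconi protein that is ubiquitinated at crosslinks, fell from 57.5 and 50.4 CPM to 22.4 and 23.5 CPM (-1.24 ± 0.09, adjusted p = 1.107e-08). Bard1, the partner of BRCA1, changed by -1.18 ± 0.09 (adjusted p = 2.441e-08), and Rad54b, which shares 35.8% of its exon bases with Fsbp, by -1.23 ± 0.14 (adjusted p = 1.192e-06).

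Subunits and partners of DREAM and RB were themselves mostly lower, 15 of 19, with 1 higher and a median of -0.64. E2f8, a repressor with 11.2% of its exon bases in another gene, fell from 77.7 and 86.5 CPM to 37.8 and 39.4 CPM (-1.09 ± 0.07, adjusted p = 1.961e-09), and E2f2, an activator, from 19.7 and 21.0 CPM to 10.8 and 10.1 CPM (-0.95 ± 0.11, adjusted p = 2.413e-06). Of the MuvB core, which reads the CHR, Lin54 fell from 66.3 and 66.7 CPM to 30.4 and 33.4 CPM (-1.06 ± 0.07, adjusted p = 4.328e-09) and Lin9 from 38.9 and 36.8 CPM to 18.2 and 19.7 CPM (-0.999 ± 0.10, adjusted p = 3.385e-07). The pocket proteins moved apart from each other. Rbl1 (p107) fell from 55.5 and 57.8 CPM to 28.1 and 31.2 CPM (-0.94 ± 0.07, adjusted p = 2.508e-08). Rbl2 (p130), the pocket protein of DREAM in resting cells, rose from 59.8 and 58.4 CPM to 70.4 and 73.7 CPM (0.28 ± 0.06, adjusted p = 0.001189), with 21.0% of its exon bases shared with Gm45464. Rb1 was at 0.10 ± 0.08 (adjusted p = 0.3365). Foxm1, the mitotic activator, fell from 165 and 169 CPM to 88.4 and 90.8 CPM (-0.90 ± 0.06, adjusted p = 2.149e-09).

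Of 24 ribosome biogenesis genes 21 fell and none was higher, with a median of -0.48. Dkc1, the pseudouridine synthase dyskerin, fell from 201 and 184 CPM to 102 and 109 CPM (-0.87 ± 0.07, adjusted p = 3.692e-08). Ncl, nucleolin, fell from 2774 and 2555 CPM to 1655 and 1658 CPM (-0.69 ± 0.06, adjusted p = 1.36e-07). Nop58, a core protein of box C/D particles, and Heatr1, a factor of rRNA processing, changed by -0.66 ± 0.07 (adjusted p = 3.487e-07) and -0.58 ± 0.06 (adjusted p = 6.74e-07). Myc, a regulator of these genes, stood at 195 and 237 CPM with vector and 233 and 218 CPM with p53WT (0.06 ± 0.09, adjusted p = 0.5859). The groups overlap for Myc, and its value rested on which vector library was kept: 0.21 (adjusted p = 0.0384) without vector replicate 2 and -0.07 without vector replicate 1.

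Lysosomal genes moved the other way: 32 of 35 were higher and 1 lower, with a median of 0.64. The lysosome is the acidic organelle that breaks down lipids, proteins and glycans. Ctsd, cathepsin D (ENSMUSG00000007891.16, chr7:142375911-142388038, minus strand), rose from 368 and 358 CPM to 1321 and 1332 CPM, a log2 change of 1.87 ± 0.05 (adjusted p = 8.956e-14), with 34.4% of its exon bases shared with Gm49369. Man2b1, lysosomal alpha-mannosidase, rose from 69.4 and 69.0 CPM to 184 and 182 CPM (1.40 ± 0.06, adjusted p = 3.676e-11). Tpp1, a tripeptidyl peptidase, rose from 76.0 and 78.5 CPM to 184 and 194 CPM (1.29 ± 0.06, adjusted p = 3.276e-11). Membrane proteins and the proton pump also had higher members: Lamp1 changed by 0.60 ± 0.05 (adjusted p = 3.129e-08) and Atp6v0d1 by 1.18 ± 0.06 (adjusted p = 7.332e-11). The steepest was Ctsf, cathepsin F, from 0.459 and 0.197 CPM to 9.58 and 7.65 CPM (4.62 ± 0.27, adjusted p = 7.507e-10), with 5.40 without vector replicate 1. Ctsh, cathepsin H, was the member that fell, from 130 and 110 CPM to 84.7 and 82.0 CPM (-0.53 ± 0.09, adjusted p = 0.0003877). Scarb2, a lysosomal membrane receptor, was at 0.01 ± 0.06 (adjusted p = 0.8422), and at -0.01 without vector replicate 1. Tfeb, a factor that drives lysosomal genes, stood at 11.99 and 15.3 CPM with vector and 15.1 and 11.2 CPM with p53WT, and was not called.

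Phospholipids carry a headgroup such as ethanolamine or choline, which can be released by phosphodiesterases and lipases and used again. Among 23 genes listed under headgroup release 13 were higher and 1 lower, with a median of 0.37. The list is broad and holds genes whose products do not themselves release a headgroup, such as Abhd4 and Sphk1. Abhd4, which removes acyl chains from N-acyl phosphatidylethanolamine (ENSMUSG00000040997.14, chr14:54259232-54269164, plus strand), rose from 41.4 and 41.5 CPM to 198 and 208 CPM, a change of 2.29 ± 0.06 (adjusted p = 7.177e-14). Gdpd5, a glycerophosphodiesterase gene, rose from 8.68 and 9.07 CPM to 29.4 and 29.1 CPM (1.72 ± 0.11, adjusted p = 1.741e-09). Sphk1, sphingosine kinase 1, rose from 8.83 and 10.3 CPM to 27.1 and 24.5 CPM (1.44 ± 0.12, adjusted p = 5.686e-08). Pld3, of the phospholipase D family, rose from 17.6 and 21.6 CPM to 45.1 and 44.1 CPM (1.20 ± 0.12, adjusted p = 1.196e-06). Replicates of these genes differed by far less than the groups.

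The synthesis branches had 6 of 15 higher and 4 lower, against 25.5% and 25.1% of all genes, with a median of 0.17. In the choline branch, Pcyt1a, the rate-limiting enzyme of phosphatidylcholine synthesis, rose from 156 and 161 CPM to 262 and 277 CPM (0.77 ± 0.06, adjusted p = 9.478e-09), and Chka, choline kinase alpha, from 268 and 262 CPM to 421 and 404 CPM (0.64 ± 0.05, adjusted p = 2.685e-08). Lpin2, a phosphatidate phosphatase gene, rose by 0.55 ± 0.06 (adjusted p = 2.033e-06). In the ethanolamine branch, Pcyt2, the matching enzyme for phosphatidylethanolamine, was lower at 91.6 and 98.7 CPM with vector and 81.8 and 75.7 CPM with p53WT (-0.27 ± 0.07, adjusted p = 0.006332). Its call was lost without p53WT replicate 2 (adjusted p = 0.075) and without vector replicate 2 (adjusted p = 0.0558). Selenoi, the ethanolamine phosphotransferase, fell from 139 and 131 CPM to 90.4 and 101 CPM (-0.50 ± 0.06, adjusted p = 5.7e-06). Etnk1, ethanolamine kinase 1, overlapped between the groups at 167 and 164 CPM against 163 and 176 CPM (0.03 ± 0.06, adjusted p = 0.6925, and -0.02 without p53WT replicate 2). Pemt, which methylates phosphatidylethanolamine to phosphatidylcholine, fell from 6.43 and 6.51 CPM to 4.32 and 3.83 CPM (-0.66 ± 0.16, adjusted p = 0.00219).

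Of 18 glycolysis genes 8 were higher and 1 lower, with a median of 0.18. Pdk1, a kinase that shuts pyruvate dehydrogenase, rose from 20.6 and 19.1 CPM to 31.1 and 33.2 CPM (0.69 ± 0.08, adjusted p = 3.273e-06). Aldoa, aldolase, rose from 651 and 720 CPM to 1119 and 1048 CPM (0.66 ± 0.07, adjusted p = 8.91e-07). Pfkfb3, which makes the activator of phosphofructokinase, and Hk1, hexokinase 1, changed by 0.55 ± 0.09 (adjusted p = 7.831e-05) and 0.47 ± 0.07 (adjusted p = 3.543e-05). Ldha, lactate dehydrogenase A, was at -0.10 ± 0.05 (adjusted p = 0.1363) and Gapdh at -0.05 ± 0.06 (adjusted p = 0.473, and 0.01 without vector replicate 2). Of 10 tested mitochondrial genes that encode proteins 9 were higher and none lower, with a median of 0.77. mt-Nd4 rose from 1075 and 1032 CPM to 1895 and 1853 CPM (0.83 ± 0.06, adjusted p = 1.381e-08), and mt-Nd5, mt-Nd6 and mt-Co1 by 0.74 ± 0.06, 0.80 ± 0.06 and 0.48 ± 0.06. mt-Nd1 was at 0.14 ± 0.07 (adjusted p = 0.09434, but 0.0308 without the low-count filter). Of the 9, mt-Co2, mt-Co3 and mt-Atp6 lay at or under 1.25 CPM in all 4 libraries, and none of these 3 passed the test in DESeq2 (adjusted p between 0.0587 and 0.245). All mitochondrial genes together took 3.01% and 3.04% of counts with p53WT and 2.36% and 2.24% with vector, and the part of RNA quality in this was not tested.

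Mucins, trefoil factors and other gastric-type genes had 6 of 11 lower and 3 higher, with a median of -0.65. Tff3, trefoil factor 3 (ENSMUSG00000024029.4, chr17:31125306-31129646, minus strand), fell from 10.7 and 11.2 CPM to 1.25 and 2.12 CPM, a log2 change of -2.71 ± 0.20 (adjusted p = 9.657e-09). Tff2 fell from 11.9 and 12.5 CPM to 4.51 and 5.88 CPM (-1.23 ± 0.18, adjusted p = 4.529e-05). Muc5ac, a secreted gel-forming mucin, fell from 8.88 and 10.1 CPM to 2.69 and 3.21 CPM (-1.68 ± 0.17, adjusted p = 4.797e-07), and Muc5b, its neighbour on chromosome 7, from 3.01 and 4.01 CPM to 0.564 and 0.342 CPM (-2.90 ± 0.35, adjusted p = 3.386e-06). Ctse, the gastric protease cathepsin E, went against them, from 57.1 and 58.0 CPM to 169 and 178 CPM (1.59 ± 0.06, adjusted p = 4.748e-12). Of 17 keratin and junction genes 11 were tested, and of these 6 were higher and 3 lower, with a median of 0.38. Epcam, Cldn3, Cldn4, Cldn7, Esrp1 and Grhl2 did not pass the expression filter. Krt7 (ENSMUSG00000023039.17, chr15:101412449-101427789, plus strand) rose from 155 and 164 CPM to 570 and 532 CPM (1.79 ± 0.09, adjusted p = 3.242e-09), and its partner Krt18 from 1776 and 1810 CPM to 3003 and 2877 CPM (0.71 ± 0.06, adjusted p = 1.543e-08). Jup, plakoglobin, rose from 71.7 and 88.2 CPM to 226 and 223 CPM (1.495 ± 0.11, adjusted p = 2.297e-06). Cdh1, E-cadherin, fell from 1288 and 1272 CPM to 985 and 1034 CPM (-0.34 ± 0.05, adjusted p = 3.136e-05), and Elf3, an epithelial transcription factor, by 0.66 on the log2 scale (SE 0.07, adjusted p = 4.334e-07). The keratins Krt8 and Krt19 rose by 0.57 ± 0.12 (adjusted p = 0.004063) and 0.54 ± 0.12 (adjusted p = 0.00556).

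MHC class I presentation, by which cells display peptides to T cells, had 11 of 14 higher and none lower, with a median of 0.64. Tap1, a subunit of the peptide transporter (ENSMUSG00000037321.17, chr17:34187553-34197225, plus strand), was at 0 and 0.132 CPM with vector and 13.6 and 12.7 CPM with p53WT, 229 times higher with an exact 95% counting interval from 63.0 to 1899. Its fitted log2 change of 7.66 ± 0.36 (adjusted p = 5.599e-11) became 10.77 without vector replicate 2, which holds all of its vector counts, and 6.56 without vector replicate 1. B2m, the light chain of class I molecules, rose from 90.9 and 89.7 CPM to 174 and 164 CPM (0.91 ± 0.06, adjusted p = 1.658e-09). Tapbp, tapasin, changed by 0.69 ± 0.08 (adjusted p = 3.273e-06), with 29% of its exon bases shared with Gm19412, and H2-T23, a nonclassical heavy chain, by 0.69 ± 0.15 (adjusted p = 0.0007992). Irf1, a factor that drives class I genes, stood at 23.9 and 22.3 CPM against 22.7 and 23.2 CPM and was not called. Nlrc5, the class I transactivator, was at 0 and 0.066 CPM with vector and 1.63 and 1.23 CPM with p53WT (5.31 ± 0.71, adjusted p = 1.029e-05), and at 7.58 without vector replicate 2 and 4.30 without vector replicate 1.

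Of 11 cytokine and chemokine genes tested 7 were higher and 3 lower, with a median of 0.89. Il1a, interleukin 1 alpha, with 11.2% of its exon bases in another gene, rose from 2.40 and 3.42 CPM to 8.89 and 8.20 CPM (1.58 ± 0.18, adjusted p = 2.033e-06). Ccl20 rose from 107 and 106 CPM to 202 and 194 CPM (0.89 ± 0.06, adjusted p = 2.337e-09). Ccl2, a monocyte attractant, rose by 0.77 ± 0.19 (adjusted p = 0.002379), and Cxcl2, a neutrophil attractant, fell by 0.62 (SE 0.14, adjusted p = 0.001459). Of 3 immune cell markers that passed the expression filter, Cd14 and Cd68 were higher and Csf1r was not called. Of 14 such markers 11 lay under 1 CPM in all 4 libraries and 5 were at 0, among them Cd8a, Ms4a1, Adgre1 and Nkg7, while their summed level was 112 and 111 CPM with vector and 170 and 171 CPM with p53WT. Cd14 made up most of that sum, at 94.2 and 92.4 CPM against 143 CPM in both p53WT libraries, and Cd68 stood at 1.79 and 2.10 CPM against 8.33 and 8.34 CPM. Csf1r stood at 14.8 and 16.2 CPM with vector and 17.9 and 18.9 CPM with p53WT. The part of these markers in the cytokine result was not tested. Of 10 endothelial markers 8 lay under 1 CPM, Tek and Erg were at 0, and the sum was 12.1 and 12.7 CPM with vector and 8.96 and 9.16 CPM with p53WT. Of 3 tested, Flt1 alone was called, falling by 1.91 on the log2 scale (SE 0.23, adjusted p = 2.407e-06). Egfl7, the other marker over 1 CPM, stood at 5.77 and 7.03 CPM with vector and 6.14 and 6.42 CPM with p53WT.

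RAS-MAPK feedback and immediate early genes had 8 of 22 higher and 2 lower, against 25.5% and 25.1% of all genes, with a median of 0.15. Spred3, an inhibitor of RAS signalling, rose from 2.25 and 2.24 CPM to 11.2 and 12.3 CPM (2.39 ± 0.16, adjusted p = 3.598e-09). Ier3, an early response gene, rose from 38.0 and 38.7 CPM to 89.2 and 81.4 CPM (1.16 ± 0.08, adjusted p = 4.526e-09). Jun, an AP-1 subunit, rose by 1.05 ± 0.16 (adjusted p = 0.0001063), and Dusp6, the phosphatase of ERK, by 0.79 ± 0.07 (adjusted p = 2.035e-07). Junb spread too widely to be called, at 49.2 and 106 CPM with vector and 182 and 109 CPM with p53WT (adjusted p = 0.2095).

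Among genes with a mean of at least 5 CPM, several had no or hardly any counts with vector. Stox2, a storkhead-box gene (ENSMUSG00000038143.16, chr8:47180048-47413837, minus strand), had no count with vector and 10.3 and 11.7 CPM with p53WT, at least 127-fold higher (adjusted p = 7.507e-10). 1700007K13Rik and Ano3 had no count with vector either, and were at least 124-fold and at least 120-fold higher. Ces2e, a carboxylesterase gene of a family with close copies, was at 0 and 0.066 CPM against 30.8 and 33.8 CPM, a ratio of 1121 with a counting interval from 201 to 44335. Its fitted log2 change of 9.79 became 12.06 without vector replicate 2 and 8.78 without vector replicate 1. The fitted changes of Inka2, Notch3 and Sytl1 were 6.53 ± 0.31, 6.16 ± 0.32 and 6.11 ± 0.38. Inka2 was at 11.91 without vector replicate 1 and 5.72 without vector replicate 2, and Sytl1 at 10.44 without vector replicate 2 and 4.96 without vector replicate 1, since 1 vector library of each has no count. The Notch3 receptor gene stood at 0.153 and 0.197 CPM against 14.03 and 11.8 CPM (adjusted p = 1.781e-10).

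A p53 element was searched in the same windows: the 20-base consensus made of 2 adjoining half-sites with an exact core and at most 2 mismatches. It was found in 13 of the 10284 tested genes with a window and in 0.2% of all windows. The genes called higher among the 13 were Stox2, Ms4a10, Zfp365, Bmp4 and B3gat3, and those called lower were Tbp, Ckap2 and Kif23. Arhgef10l, Bbs2, Rp2, Calhm2 and Ss18l2 were not called. Over all genes tested, 25.5% were higher and 25.1% lower. Whether the element goes with a change in either direction was not tested. The calls for B3gat3 and Tbp, at 0.43 and -0.22 on the log2 scale, were lost without p53WT replicate 1 (adjusted p of 0.0899 and 0.0884) and without vector replicate 1 (0.0855 and 0.071). No window of the target lists held one, which says only that these letters are not in those windows. The elements of Zfp365 (chr10:67912686-67912745, minus strand) and Ms4a10 (chr19:10974761-10974820, minus strand) are shown, in capitals, as matches before steeply raised genes. Zfp365 and Ms4a10 do not stand for all 13, which include genes called lower and genes not called.
Zfp365: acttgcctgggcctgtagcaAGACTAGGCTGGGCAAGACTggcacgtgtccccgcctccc
Ms4a10: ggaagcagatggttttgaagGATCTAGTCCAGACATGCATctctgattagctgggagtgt
Zfp365, a zinc finger gene, rose from 0.919 and 0.592 CPM to 21.7 and 21.5 CPM (4.79 ± 0.16, adjusted p = 8.398e-13). Ms4a10, a gene of the MS4A membrane protein family, had no count with vector and 0.751 and 1.09 CPM with p53WT, at least 10.6-fold higher (adjusted p = 7.831e-05).

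The largest gains in CPM, a scale on which longer and more abundant transcripts weigh more, were in Clu, Apob, Sprr1a, Gsto1, Msln and Malat1. Clu, the chaperone clusterin (ENSMUSG00000022037.15, chr14:65968483-65981547, plus strand), rose from 2171 and 2214 CPM to 7280 and 7664 CPM (1.77 ± 0.06, adjusted p = 7.335e-13). Apob, apolipoprotein B, rose from 2191 and 2206 CPM to 6157 and 7126 CPM (1.60 ± 0.07, adjusted p = 1.198e-11). Sprr1a, a cornified envelope gene, rose from 309 and 363 CPM to 2780 and 2298 CPM (2.92 ± 0.12, adjusted p = 5.743e-08). Gsto1, a glutathione transferase, Msln, mesothelin, and the nuclear RNA Malat1 followed, at 1.97 ± 0.05, 1.49 ± 0.05 and 1.20 ± 0.09. The largest losses beside Ncl and Mki67 were in Hsp90ab1 (-0.25 ± 0.05), Npm1 (-0.57 ± 0.07), Hnrnpa2b1 (-0.76 ± 0.07) and Lrp2 (-0.73 ± 0.07). Lrp2, the endocytic receptor megalin, fell from 1347 and 1339 CPM to 748 and 876 CPM (adjusted p = 1.575e-07). The steepest falls among genes with at least 5 CPM, after Tff3 and Muc5ac, were in Enpp3 (-1.65 ± 0.15), Neurl1b (-1.63 ± 0.09), Akr1c19 (-1.63 ± 0.09), Tmigd1 (-1.53 ± 0.20), Depdc1b (-1.52 ± 0.14), Aqp1 (-1.48 ± 0.11), Prex1 (-1.45 ± 0.20) and Iqgap2 (-1.42 ± 0.07). Aqp1, a water channel of ductal cells, fell from 39.2 and 40.1 CPM to 14.1 and 14.4 CPM.

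p53 with both transactivation domains mutated gives a second control, one that also carries the Trp53 transcript. Against TAD12m, 3863 genes were higher with p53WT (25.6%) and 3851 lower (25.5%), 51.2% of those tested. This contrast shares the p53WT libraries with the contrast to vector, so values are given side by side and their likeness is not independent support. Cdkn1a was 3.15 above vector and 3.54 above TAD12m on the log2 scale, Mdm2 2.25 and 2.33, and Ccng1 2.98 and 3. The spindle list had 39 of 40 lower in each, with medians of -1.13 against vector and -1.13 against TAD12m, and the lysosome list had 32 and 30 of 35 higher. Pvt1, Bid, Mcl1, Hbegf, Apaf1 and Icam1 were higher against vector but did not pass the test against TAD12m. Pvt1 was 0.63 above vector and 0.26 above TAD12m (adjusted p = 0.05674). Apaf1, the apoptosome scaffold, measured 29.1 and 28 CPM with vector and 55.04 and 56.9 CPM with p53WT (0.97 ± 0.07, adjusted p = 9.358e-09), but differed from TAD12m by 0.03 (adjusted p = 0.7601). Icam1, an adhesion molecule gene that shares 11.7% of its exon bases with Gm47079, was 0.41 above vector (adjusted p = 0.0005441) and differed from TAD12m by -0.01 (adjusted p = 0.9445). Sulf2 and Zmat3 were also above vector with TAD12m, by 1.86 (adjusted p = 1.309e-07) and 0.59 (adjusted p = 1.583e-05), and p53WT exceeded TAD12m by 3.06 and 1.41. Muc5ac was 1.12 below vector with TAD12m (adjusted p = 0.0003711), and p53WT was a further 0.56 below that on the log2 scale (adjusted p = 0.02111).

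KPsh cells provide libraries that share none with KPnull. The 3 columns off doxycycline are named by day alone and were matched to their samples by elimination, and the directions in KPsh rest on that match. Mean Trp53 in KPsh cells was 21.1 CPM on doxycycline and 258 CPM off it, a log2 change of 3.62. Off doxycycline 4624 genes were higher (33.1% of 13990 tested) and 4439 lower (31.7%), 64.8% in all. The designs differ in cell line, in time, 48 h against 10 days, and in the direction in which doxycycline was changed. Among 13502 genes tested in both lines, 32.8% were higher and 31.9% lower in KPsh cells. Of the 3576 of these that were higher with p53WT, 2831 (79.2%) were higher and 113 (3.2%) lower in KPsh. Of the 3657 that were lower with p53WT, 2701 (73.9%) were lower and 165 (4.5%) higher in KPsh. Read the other way, 63.9% of the 4429 genes higher in KPsh were higher with p53WT, and 62.8% of the 4303 lower in KPsh were lower with p53WT. Of the 6269 genes not called with p53WT, 22.9% were higher and 23.8% lower in KPsh.

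Among genes at least 1 higher on the log2 scale with p53WT, 810 of 879 (92.2%) were higher in KPsh, and among those at least 2 higher, 219 of 226 (96.9%). These sets leave out those of the 1110 and 330 such genes that did not pass the filter in KPsh. Genes with hardly any counts on doxycycline passed that filter only through the libraries off it, where they were high. 1700007K13Rik, for example, had a mean of 0 CPM on and 7.61 CPM off doxycycline. For such genes the direction was fixed in advance, which can raise these shares and that of all higher genes. Among genes at least 1 lower, 276 of 347 (79.5%) were lower in KPsh, and among those at least 2 lower, 7 of 9 (77.8%). By list, the spindle genes had 36 of 40 lower in KPsh with a median of -0.65, where the median with p53WT was -1.13, and lysosome genes had 32 of 35 higher with a median of 0.82 against 0.64. Ribosome biogenesis had 23 of 24 lower with a median of -0.57. Glycolysis, with 8 higher and 1 lower with p53WT, had 3 higher and 5 lower of 17 in KPsh, with a median of -0.01. Over all genes tested in both lines, 32.8% were higher and 31.9% lower in KPsh. Fas was the steepest listed apoptosis gene in both, with means of 0.148 CPM on and 21.0 CPM off doxycycline. Genes called in opposite directions, with groups apart in both tables and a mean of at least 5 CPM, numbered 229. Muc5ac alone among them changed by at least 1 on the log2 scale in both: it fell by 1.68 with p53WT and rose by 4.37 in KPsh, from a mean of 2.97 CPM to 60.96 CPM.

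**Figure D5:**
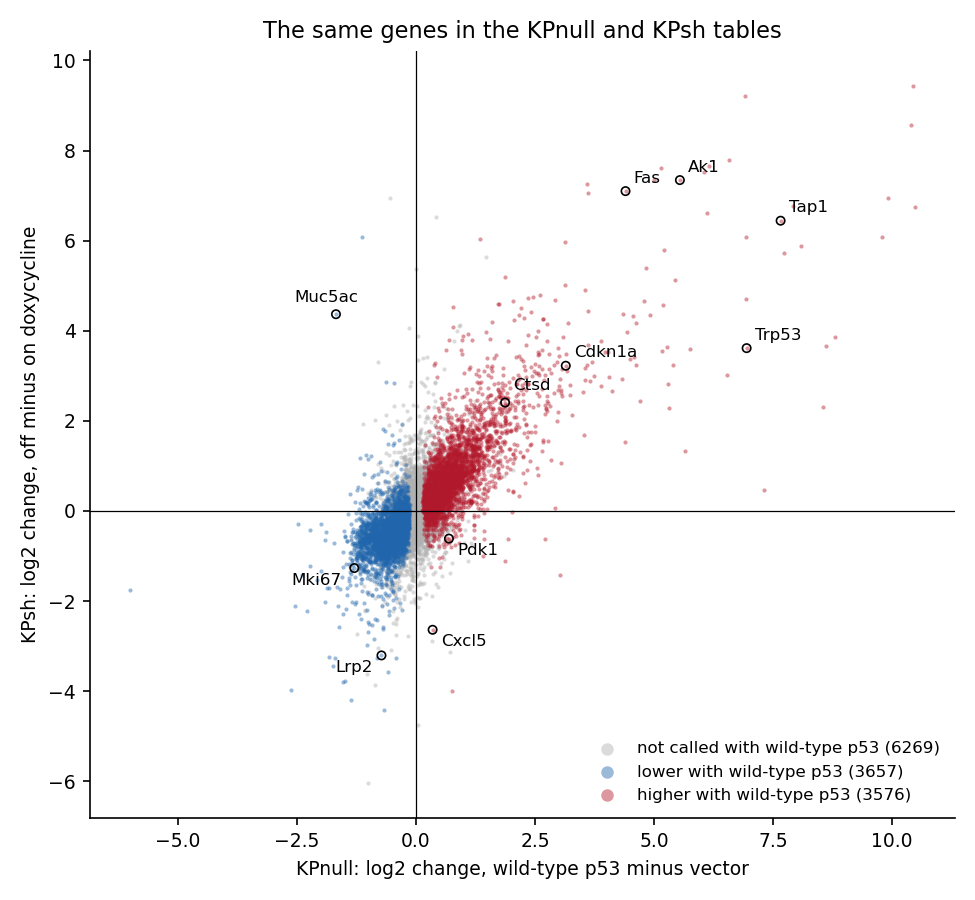
Log2 change in KPnull (p53WT minus vector, across) and in KPsh (off minus on doxycycline, upward) for the 13502 genes tested in both tables; red and blue mark genes higher (3576) and lower (3657) with p53WT, grey the 6269 not called. Most red points lie above 0 and most blue points below it, while Muc5ac, Cxcl5 and Pdk1, circled, lie on the other side.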

How the data were processed

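The authors deposited the tables of expected counts used here, 1 with the 10 KPnull libraries and 1 with 6 KPsh libraries. They were made with HOMER over GENCODE vM25 exons of mm10, on both strands and without normalization, per the file headers. Reads were aligned with STAR 2.6.1c, per the submitters' processing notes. Between 18.1% and 19.9% of a library's values were not whole, so all were rounded. The kit is stranded but counting used both strands, so overlapping genes share reads. Shared exon bases were measured in GENCODE vM21.

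The groups were compared with edgeR 4.0.16 (R 4.3.3): low-count filter, TMM scaling, quasi-likelihood test over all 10 KPnull or 6 KPsh libraries, and Benjamini-Hochberg adjustment over all genes tested. All adjusted p-values are from this test unless another tool is named. The script was tested on simulated data with 200 changed genes. Alternatives were DESeq2 1.42.0, RLE scaling, no filter, only the 4 libraries compared, the replicate number as a block, and each replicate left out. A log2 change has its standard error. Ratios against a group with 1 to 3 counts have exact 95% intervals, and folds against 0 use 3 counts; both cover counting error only.

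The comparison and gene lists were chosen with earlier results of these data known. Named genes are Trp53, Cdkn1a, Mdm2 and Ccng1, up to 4 called members of each list with the largest change and at least 5 CPM (where none was called, the 2 most abundant), the 10 highest and 10 lowest changes, and the 6 largest gains and 6 largest losses in CPM. The other genes named, among them Bbc3, Sesn1, Apaf1, Myc, Mcm6, Zfp365 and Pcyt2, were chosen after their values were seen. Some genes that this rule names are not reported here.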

Additional observations from a re-analysis of the deposited data

Results flagged for a closer look

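In 5 named genes every p53WT library moved one way against vector in KPnull cells while every KPsh library off doxycycline moved the opposite way. The difference between the lines was not tested, and line, time and the use of doxycycline differ together. Muc5ac was at -1.68 on the log2 scale with p53WT and 4.37 in KPsh. Cxcl5, a neutrophil attractant, was at 0.35 with p53WT and -2.64 in KPsh. Pdk1 was at 0.69 and -0.61, Pfkfb3 at 0.55 and -0.45, and Ckap2, a spindle protein gene, at -0.74 and 0.42.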

How the results depend on the processing

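Against vector, genes higher with p53WT numbered 3221 in DESeq2, 3972 with RLE scaling, 4053 without the filter, 3646 with the 4 libraries alone and between 3211 and 3809 with 1 replicate left out, and genes lower 2864, 3626, 3630, 3561 and between 2982 and 3466. With a replicate out, the counts against TAD12m were 3167 to 3886 higher and 2963 to 3646 lower, and in KPsh 4286 to 4653 and 4198 to 4385. No count over all genes and none of the 23 list counts moved by over 1.5 times. Same-numbered libraries did not deviate together throughout: over pairs of KPnull groups their deviations correlated at -0.182 to 0.326 (vector and p53WT -0.156), and in KPsh at -0.12 to -0.0889. With the replicate block the counts against vector were 3802 and 3746, against TAD12m 3836 and 3819, and in KPsh 4432 and 4233. A crossed replicate block, chosen after seeing the data, gave 4278 and 4233 against vector and 4332 and 4235 against TAD12m. The 123 genes named by rule kept direction and call under each alternative, and of 64 added genes 42 did. The sign of uncalled values turned with single libraries: Etnk1 ranged from -0.02 to 0.09, Gapdh from -0.10 to 0.01, Ppm1d from -0.33 to 0.02, Pttg1 from -0.08 to 0.12, Scarb2 from -0.01 to 0.05, Irf1 from -0.06 to 0.04 (0.00 in DESeq2 and with RLE scaling), Myc from -0.07 to 0.21 and Tfeb from -0.27 to 0.16. The rule names called genes with large changes in these same libraries, so the kept calls of its 123 genes were largely fixed in advance. Genes near 1 CPM rest on few counts and each KPnull group on 2 libraries. Causes of lost calls were not tested.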

Other observations

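Small nucleolar RNA genes are a group chosen after the values were seen. Of 110 tested, 29 (26.4%) were lower with p53WT, against 25.1% of all genes, and 0 were higher, against 25.5%, in edgeR's quasi-likelihood test. At an unadjusted p under 0.05 edgeR had 0 higher too, and DESeq2 called 0 higher. The median log2 change over the 110 was -0.63, and the 29 lower genes ranged from -2.07 to -0.49. Over 90% of the exon bases of 23 of these 29, and of 81 of the 110, lie in another tested gene, so their counts cannot be told apart from those of their hosts.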
